A study of Mus musculus with 6 samples.

Results

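Bone morphogenetic proteins (BMPs) and the genes that carry and read out their signal were described in the ductus arteriosus (DA) of mouse embryos at E17.5. The members were chosen by symbol and not by a measured value, but with earlier results of these data known. They are the ligands *Bmp2*, *Bmp4*, *Bmp5*, *Bmp6*, and *Bmp7*, the receptors *Bmpr1a* and *Bmpr2*, and the target genes *Id1*, *Id2*, and *Id3*. All 10 were among the 23997 genes listed. RNA-Seq had been carried out on 3 libraries of wild type DA, titled WT, and 3 of the genotype written Prdm6f/f; SM22-Cre in the labels and titled KO, all of them from C57BL/6 embryos. In the KO embryos both copies of *Prdm6* carry loxP sites, and Cre is driven by *SM22* (*Tagln*), which aims the deletion at smooth muscle cells (SMCs). Whether other cells of the vessel keep the gene cannot be seen in these data. Neither the labels nor the methods say whether the wild type littermates carried Cre or a floxed allele, which part of *Prdm6* is removed, or whether a library is 1 embryo or a pool.

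BMPs are secreted ligands of the TGF-β superfamily. They bind type II receptors such as BMPR2, which activate type I receptors such as BMPR1A, and these phosphorylate SMAD1, SMAD5, and SMAD9, which enter the nucleus with SMAD4 and induce genes including the *Id* genes. ID proteins bind basic helix-loop-helix transcription factors and keep them from DNA. In arteries the pathway acts in endothelial cells and SMCs, and loss of *BMPR2* is a known cause of pulmonary arterial hypertension.

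Values are FPKM, in which fragments are divided by the length of the transcript and by the size of the library, so levels can be set beside each other between genes. Differences are log2 fold changes of KO minus WT on log2(FPKM + 0.1), with a standard error (SE) and a 95% interval from limma. A gene was tested where its mean FPKM over the 6 libraries was at least 1, which 12955 genes reached. *Bmp5* was the 1 member below it, so 9 of 10 members were tested. P values were adjusted over all tested genes with a threshold of 0.05. With 3 libraries a group, the smallest p of a two-sided exact permutation test is 0.1, and p values measure the spread between libraries, which may be technical, since the methods give a minimum of mice per group for in vivo work as a whole but no source ties a library to an animal.

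The libraries differed in ways that the genotypes do not describe. Their upper quartiles lay between 10.4 and 10.8 FPKM. Steps between low values put their depth between 0.927 and 1.19 times that of WT 1. Only ratios near equal depth were searched, so a large difference could not have been found, and the total depth is unknown. Genes listed at 0 numbered from 8338 in KO 2 to 11886 in WT 2. Summed FPKM ran from 412183 in WT 1 to 818503 in KO 2. In each library, between 34 and 61 of the 3506 genes with a mean of at least 20 FPKM stood at 0, so a 0 can be a failed estimate. KO 0 held *Xist* (81.0 FPKM) together with the Y chromosome transcript *Ddx3y* (26.4 FPKM). WT 0 and KO 1 held *Xist* (67.0 and 82.8 FPKM), with *Ddx3y* at 0 and 0.383 FPKM. WT 1, WT 2, and KO 2 held *Ddx3y* (24.0, 23.4, and 20.1 FPKM), with *Xist* at 0.053, 0.043, and 0.047 FPKM. These transcripts thus differed within each group, and the part of sex was not tested. WT 1 and KO 2 were the highest in heart muscle markers. *Prdm6* itself was at 41.7, 48.4, and 19.8 FPKM in WT 0, 1, and 2 and at 48.6, 27.1, and 15.4 FPKM in KO 0, 1, and 2. Each direction below rests on the deposited labels, because the level of the whole *Prdm6* transcript cannot check them.

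All 12 smooth muscle markers had a lower mean in KO, with a summed level of 3335 to 7029 FPKM in WT and 1255 to 3297 FPKM in KO. Of 15 endothelial markers, 11 had a higher mean in KO, and their sum was 399.5 to 604.1 FPKM in WT and 528.9 to 787.4 FPKM in KO. Of 13 tested Schwann cell markers, 11 had a higher mean in KO, and the sum of the 14 listed was 109 to 136 FPKM in WT and 129 to 287 FPKM in KO. All 10 tested neuron markers had a higher mean in KO, with sums of 44.6 to 62.9 FPKM over the 13 listed in WT and 99.3 to 105 FPKM in KO. All 8 tested erythroid markers had a higher mean in KO as well, with a sum over the 10 listed of 3866 to 7590 FPKM in WT and of 12658 and 24373 FPKM in KO 0 and KO 1, but of 4289.8 FPKM in KO 2, within the WT range. Summed fibroblast markers were at 3245 to 6384 FPKM in WT and 2434 to 5257 FPKM in KO. They were above the smooth muscle sum except in WT 0 and KO 0. Heart muscle sums were 51.9 to 1101 FPKM in WT and 108 to 1102 FPKM in KO. Macrophage sums were 42.3 to 232 FPKM in WT and 44.3 to 274 FPKM in KO. The DA libraries thus carried smooth muscle markers beside those of other cell types. By mean level the smooth muscle markers ran from *Acta2*, at 396 to 2262 FPKM, to *Myocd*, at 12.4 to 37.5 FPKM.

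**Figure D1:**
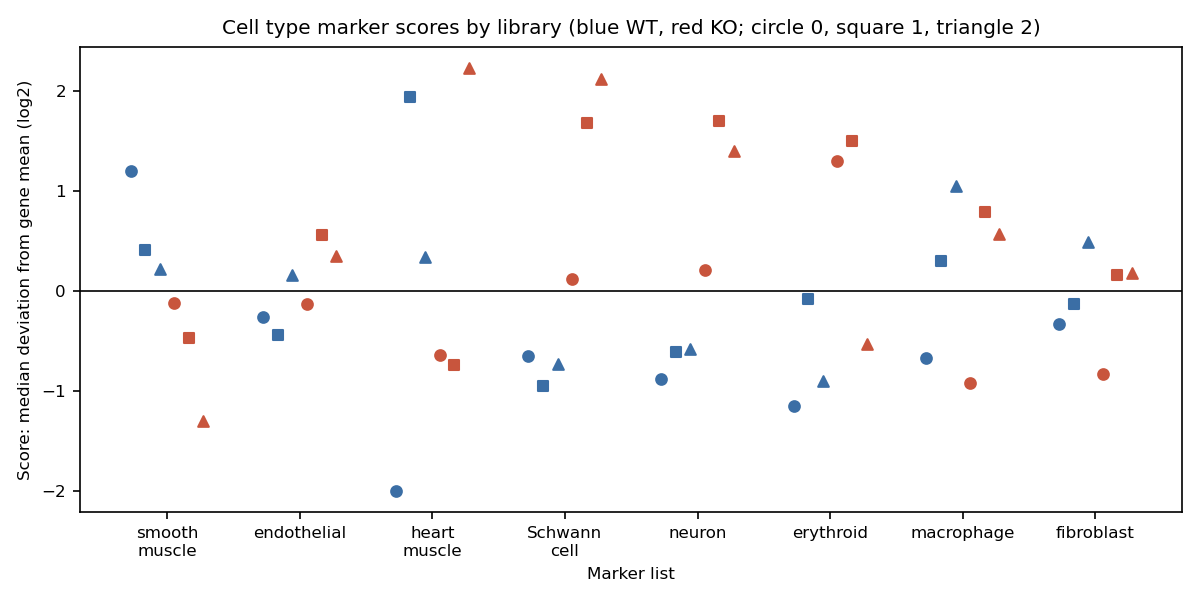
Score of each marker list in each library, the median over its tested genes of the deviation of log2(FPKM + 0.1) from the gene's mean over the 6 libraries. The vertical axis is log2, each point is 1 library (blue WT, red KO), and the smooth muscle scores run from 0.23 to 1.199 in WT and from -1.30 to -0.12 in KO.

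Id2 and Id3 are shown by sequence because *Id2* was the member with the lowest unadjusted p and *Id3* the most abundant. Each window runs from 250 bases before to 50 bases after the RefSeq start on GRCm38.p6, 5′ to 3′ on the gene's strand, and capitals mark the letters GGCGCC, a GC-rich box of the kind SMAD proteins bind, and CAGAC or its reverse complement GTCTG, the SMAD box. The *Id2* window is chr12:25096043-25096342 on the minus strand and the *Id3* window is chr4:136143572-136143871 on the plus strand.
Id2: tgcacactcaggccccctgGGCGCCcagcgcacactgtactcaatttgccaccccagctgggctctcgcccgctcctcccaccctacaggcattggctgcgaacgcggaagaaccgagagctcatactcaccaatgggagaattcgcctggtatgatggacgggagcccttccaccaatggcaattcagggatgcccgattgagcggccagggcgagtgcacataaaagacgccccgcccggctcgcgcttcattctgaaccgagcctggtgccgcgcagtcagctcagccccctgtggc
Id3: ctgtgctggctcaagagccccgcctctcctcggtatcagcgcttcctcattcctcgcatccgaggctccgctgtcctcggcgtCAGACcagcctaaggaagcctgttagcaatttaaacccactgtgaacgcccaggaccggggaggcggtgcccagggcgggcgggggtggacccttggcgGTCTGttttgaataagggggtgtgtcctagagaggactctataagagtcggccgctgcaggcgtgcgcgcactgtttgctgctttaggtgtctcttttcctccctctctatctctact
The *Id2* window held 1 GGCGCC and no SMAD box, and the *Id3* window held no GGCGCC and 2 SMAD boxes. Windows were at hand for 7 members. GGCGCC was also in those of *Bmpr1a* and *Bmpr2*, the SMAD box was also in those of *Bmp5* and *Bmp6*, and the *Bmp4* window held neither. Of all 32851 windows of this length in the RefSeq set, 11.9% held GGCGCC, 49.6% the SMAD box on either strand, and 5.24% both. The matches are descriptions of these letters and not binding sites.

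Of the 9 members tested, 0 passed the adjusted threshold, as against 1 of 12955 genes (0.00772%), the ribosomal RNA precursor *Rn45s*. *Rn45s* was listed at 0 in each WT library, where a 0 can be a failed estimate, and was at 3060, 3806, and 4520 FPKM in KO 0, 1, and 2. This difference runs along the labels, so genotype and any other difference between the WT and KO libraries cannot be told apart in it. The part of *Rn45s* in the values of the members was not tested. One member, *Id2*, had an unadjusted p under 0.05, which 8.28% of all tested genes had. The groups did not overlap for *Id2* and *Bmp2*, both of them lower in KO. Over all tested genes the share without overlap was 16.1%, with 7.84% lower and 8.21% higher in KO, so that 2 of 9 members is not far from the share of all genes. The number was 4 without WT 0 and again 4 without KO 0, and 3 without both WT 1 and KO 2. Leaving libraries out can only raise this number, and the share of all genes was not counted in these settings. The median log2 fold change was -0.29 over the 9 members and 0.072 over all genes. Without WT 2 the median of the members was -0.0068 and without KO 2 it was -0.040, and it was 0.0052 once WT 1 and KO 2, with their high heart muscle markers, were both removed.

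**Figure D2:**
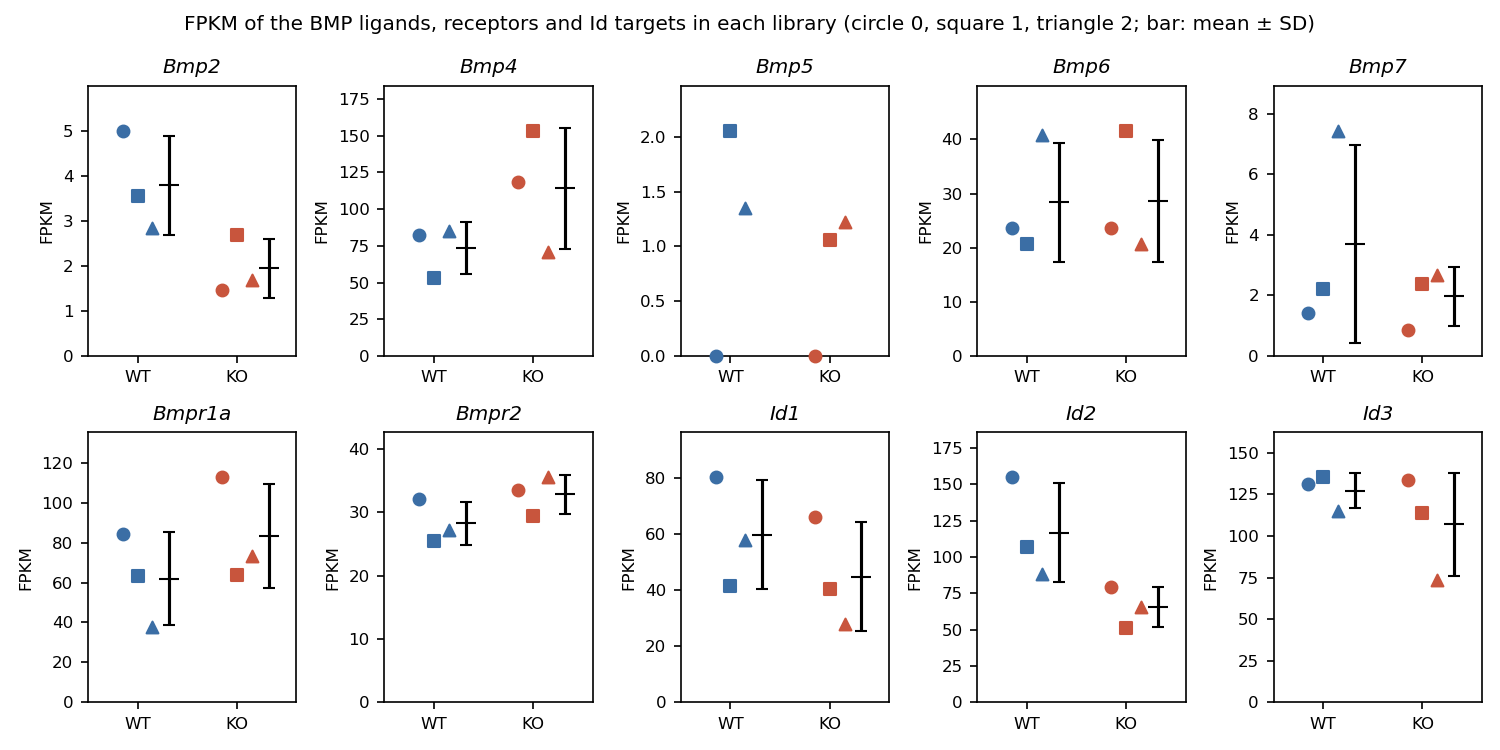
FPKM of each member in each library, with 1 panel per gene, linear axes from 0, and the mean ± SD of each group as a bar beside its 3 libraries (circle 0, square 1, triangle 2), left out for *Bmp5*, which was listed at 0 in a pair of libraries. The KO points of *Bmp2* and *Id2* lie below every WT point, and those of the other members overlap with WT.

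Among the member ligands, *Bmp4* was by far the most abundant. *Bmp4* (chromosome 14 of GRCm38 from 46383520 to 46390669) encodes a ligand with roles in mesoderm, neural crest, and heart development. It was at 82.2, 52.9, and 85.3 FPKM in WT 0, 1, and 2 and at 118, 153, and 71.1 FPKM in KO 0, 1, and 2. The 2 highest values were both in KO, but KO 2 lay within the WT range, so the groups overlapped. This gave a log2 fold change of 0.60 (SE 0.32, 95% interval -0.14 to 1.33, unadjusted p = 0.0962, adjusted p = 0.643 from limma; exact permutation p = 0.3). It stayed above 0 with each library left out, at 0.35 without KO 1, 0.38 without WT 1, and 0.91 without KO 2. KO 0 and KO 1, the libraries high in *Bmp4*, were also those high in erythroid markers, whose part was not tested. The antisense gene *Gm15217* shares exon sequence with *Bmp4*, and whether counting used strand is not stated. *Gm15217* was at 17.6 FPKM in WT 2, 7.20 FPKM in KO 0, and 0.906 FPKM in KO 2 and listed at 0 in the other libraries. *Bmp5* and *Bmpr1a* also share exon sequence with an antisense gene, *Gm26903* and *Gm17110*, neither of which was used here.

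*Bmp2* (chromosome 2 from 133552159 to 133562885), the closest relative of *Bmp4*, was present at a far lower level. It was at 4.99, 3.55, and 2.83 FPKM in WT 0, 1, and 2 and at 1.45, 2.69, and 1.68 FPKM in KO 0, 1, and 2. Each KO library lay below each WT library, although KO 1 and WT 2 differed by little. Mean FPKM in KO was 51.3% of that in WT, and the log2 fold change was -0.94 (SE 0.57, 95% interval -2.26 to 0.38, adjusted p = 0.67 from limma; exact permutation p = 0.1). The groups also did not overlap after quantile normalization, where the log2 fold change was -1.64, or median centring, where it was -0.97.

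*Bmp6* (chromosome 13 from 38345107 to 38500302), a ligand made by endothelial cells and best known for its part in iron balance, was the second of the member ligands by level. It was at 23.6, 20.6, and 40.9 FPKM in WT 0, 1, and 2 and at 23.7, 41.6, and 20.6 FPKM in KO 0, 1, and 2. One library of each group stood near 41 FPKM and the others lay between 20.6 and 23.7 FPKM, so the spread was within the groups. The group means were 28.4 ± 10.96 FPKM (SD, n = 3) in WT and 28.6 ± 11.3 FPKM (SD, n = 3) in KO, with a log2 fold change of 0.0098 (95% interval -0.81 to 0.83, adjusted p = 0.993 from limma). The endothelial marker score was 0.16 in WT 2 and 0.56 in KO 1, the pair of libraries high in *Bmp6*, but it was also 0.35 in KO 2, and its part was not tested. The gene *Txndc5*, at 132 to 149 FPKM in WT and 114 to 130 FPKM in KO, shares exon sequence with *Bmp6* on the opposite strand.

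*Bmp7* (chromosome 2 from 172868012 to 172940321), a ligand of kidney and skeletal development, was at 1.42, 2.21, and 7.42 FPKM in WT 0, 1, and 2 and at 0.847, 2.37, and 2.68 FPKM in KO 0, 1, and 2. Its log2 fold change of -0.68 (SE 0.83, adjusted p = 0.803 from limma) rested on single libraries, being -0.0068 without WT 2, -0.19 without KO 0, and -1.16 without WT 0. *Bmp5* (chromosome 9 from 75775364 to 75900310), a ligand of cartilage development, was listed at 0 in WT 0 and KO 0 and was at 2.06, 1.35, 1.06, and 1.23 FPKM in WT 1, WT 2, KO 1, and KO 2. It stayed outside the test, and its values overlap between the groups.

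Set against each other within a library, *Bmp4* and *Bmp6* were the first and second of the 5 ligands throughout. *Bmp4* made up 73.3%, 65.0%, and 61.9% of their summed FPKM in WT 0, 1, and 2 and 82.0%, 76.3%, and 73.1% in KO 0, 1, and 2. The lowest KO value lay just under the highest WT value, and the difference of 10.4 percentage points had an exact permutation p of 0.2. *Bmp6* made up between 16.4% and 29.7% of the sum in all 6 libraries. The share of *Bmp2* was 4.45%, 4.36%, and 2.05% in WT and 1.007%, 1.34%, and 1.73% in KO, without overlap between the groups (exact permutation p = 0.1). The summed level of the 5 ligands was 110 ± 28.3 FPKM (SD, n = 3) in WT and 148 ± 51.9 FPKM (SD, n = 3) in KO, which overlap. These shares were chosen after the values were seen.

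**Figure D3:**
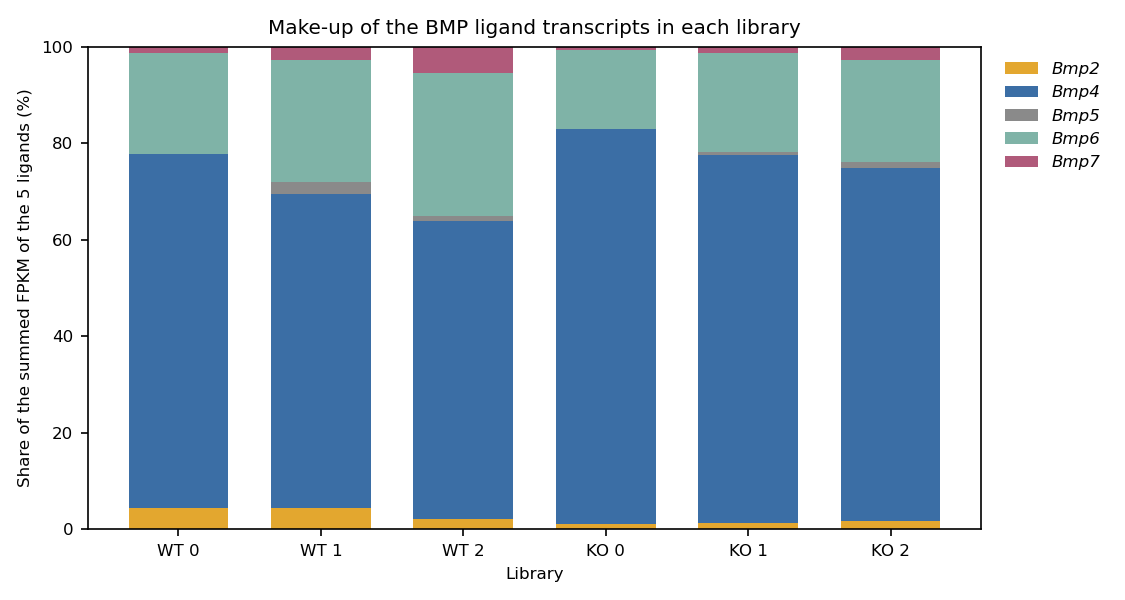
Stacked bars of the share of each member ligand in the summed FPKM of the 5 ligands, in percent, for each of the 6 libraries. *Bmp4* takes between 61.9% and 82.0% of each bar and *Bmp6* most of the rest.

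Both member receptors were somewhat higher on average in KO, within the spread of the libraries. *Bmpr1a* (chromosome 14 from 34410734 to 34503341), the type I receptor also known as ALK3, was at 84.5, 63.5, and 37.9 FPKM in WT 0, 1, and 2 and at 113, 63.9, and 73.2 FPKM in KO 0, 1, and 2. WT 2 was the lowest and KO 0 the highest, and the others overlapped. This gave a log2 fold change of 0.46 (SE 0.33, 95% interval -0.32 to 1.23, adjusted p = 0.702 from limma) and was 0.14 without WT 2, 0.22 without KO 0, and 0.72 without WT 0.

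*Bmpr2* (chromosome 1 from 59763400 to 59879014), the type II receptor, varied the least of the 9 members listed above 0 in every library. It was at 32.1, 25.6, and 27.2 FPKM in WT 0, 1, and 2 and at 33.5, 29.5, and 35.5 FPKM in KO 0, 1, and 2, and its highest value was 1.39 times its lowest, as against 8.77 times for *Bmp7*. KO 0 and KO 2 lay above all of WT, and KO 1 lay within the WT range. The log2 fold change was 0.22 (SE 0.19, 95% interval -0.21 to 0.65, adjusted p = 0.729 from limma).

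The 3 *Id* genes had lower means in KO, and *Id2* was the member that stood furthest from WT relative to its error. *Id2* (chromosome 12 from 25093799 to 25097140) was at 155, 107, and 88.6 FPKM in WT 0, 1, and 2 and at 79.1, 51.4, and 65.8 FPKM in KO 0, 1, and 2. Each KO library was below each WT library, and mean FPKM in KO was 56.0% of that in WT (117 ± 34.1 against 65.4 ± 13.8 FPKM, SD, n = 3 each). The log2 fold change was -0.82 (SE 0.25, 95% interval -1.41 to -0.23, unadjusted p = 0.0131, adjusted p = 0.54 from limma; exact permutation p = 0.1). The groups also did not overlap after quantile normalization (log2 fold change -0.67) or median centring (-0.84). With single libraries omitted the value lay between -0.998 without WT 2 and -0.60 without WT 0.

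The smooth muscle score was 1.199, 0.41, and 0.23 in WT 0, 1, and 2 and -0.12, -0.47, and -1.30 in KO 0, 1, and 2, so that the libraries from WT 0 down to KO 0 stood in the same order by *Id2* and by this score, whereas KO 2 had the lowest score but more *Id2* than KO 1. Its part in the *Id2* values was not tested. In bulk tissue, fewer cells of a type and less RNA per cell cannot be told apart.

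*Id1* (chromosome 2 from 152736251 to 152737410), a widely used readout of BMP signalling in endothelial cells, was at 80.2, 41.5, and 57.8 FPKM in WT 0, 1, and 2 and at 66.0, 40.6, and 28.0 FPKM in KO 0, 1, and 2. KO 0 was the second highest of the 6 libraries, and the groups overlapped. The log2 fold change was -0.45 (SE 0.36, 95% interval -1.28 to 0.38, adjusted p = 0.721 from limma), and the direction held with each library omitted. Its size rested on single libraries, from -0.16 without KO 2 and -0.22 without WT 0 to -0.69 without WT 1 and -0.77 without KO 0.

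*Id3* (chromosome 4 from 136143497 to 136145755) was at 131, 135, and 115 FPKM in WT 0, 1, and 2 and at 134, 114, and 73.4 FPKM in KO 0, 1, and 2. Only KO 2 stood clearly below the rest. It had a log2 fold change of -0.29 (SE 0.24, 95% interval -0.84 to 0.26, adjusted p = 0.726 from limma) and was -0.040 without KO 2, -0.47 without KO 0, and 0.0052 without both WT 1 and KO 2, so the common direction of the 3 *Id* genes did not hold in that fit. Their sum was 304 ± 55.0 FPKM (SD, n = 3) in WT and 217 ± 56.8 FPKM (SD, n = 3) in KO, with 1 overlap, KO 0 at 279 FPKM against WT 2 at 262 FPKM (exact permutation p = 0.2).

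Across the 6 libraries of both groups the *Id* genes tended to vary together, without passing a test. Group means were not removed, and each of these *Id* genes had a lower mean in KO. Part of each correlation can thus come from the difference between the groups, and variation within the groups was not tested. Pearson's r was 0.76 for *Id1* and *Id3* (exact permutation p = 0.0569, adjusted over 3 pairs p = 0.171; Spearman's rho 0.60, exact permutation p = 0.242, adjusted p = 0.242). It was 0.65 for *Id1* and *Id2* (exact permutation p = 0.153, adjusted p = 0.229; rho 0.71, exact permutation p = 0.136, adjusted p = 0.242) and 0.51 for *Id2* and *Id3* (exact permutation p = 0.335, adjusted p = 0.335; rho 0.66, exact permutation p = 0.175, adjusted p = 0.242). Without WT 0 and KO 2, the libraries farthest from the median of *Id1*, r was 0.19 and 0.22 for the pairs with *Id1*. Leaving out the extremes of a gene narrows its range and tends to lower r. This fall thus cannot show what the relations rest on. For *Id2* and *Id3*, r was 0.79 without WT 0 and KO 1.

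By level the members fell into a high and a low group. *Id3* (117 FPKM over the 6 libraries), *Bmp4* (93.9), *Id2* (91.1), *Bmpr1a* (72.6), *Id1* (52.4), *Bmpr2* (30.6), and *Bmp6* (28.5) formed the first, in order of mean log2 level, and *Bmp2* (2.87), *Bmp7* (2.82), and *Bmp5* (0.949) the second. No value of the first group was under 20.6 FPKM and no value of the second was over 7.42 FPKM. *Bmp6* was above *Bmp2* in 6 of 6 libraries by 3.32 on the log2 scale (two-sided exact sign-flip permutation test, at the smallest p that 6 libraries allow, and p = 0.141 adjusted over 9 neighbouring pairs). *Bmp7* was above *Bmp5* in 6 of 6 libraries as well, with the same p. None of the 9 pairs passed the adjusted threshold, and the other 7 had an exact permutation p from 0.0625 to 0.938.

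The place of *Bmp4* relative to *Id2* differed between the groups. *Id2* was above *Bmp4* in each WT library and *Bmp4* above *Id2* in each KO library. The ratio of *Bmp4* to *Id2* was 0.531, 0.493, and 0.963 in WT 0, 1, and 2 and 1.498, 2.98, and 1.08 in KO 0, 1, and 2, a difference of 1.42 on the log2 scale (exact permutation p = 0.1). The ratio of *Bmp4* to *Bmp2* was 16.5, 14.9, and 30.1 in WT and 81.5, 56.9, and 42.3 in KO, a difference of 1.58 on the log2 scale without overlap (exact permutation p = 0.1). Ratios within a library do not depend on its scaling, but both were chosen after the values were seen. Each sets *Bmp4*, the tested member with the highest log2 fold change, against a member without overlap that was lower in KO. Their exact permutation p of 0.1, the smallest possible, thus adds little to the values of each gene. The *Bmp4* to *Id2* ratios of WT 2 and KO 2 were close to each other.

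**Figure D4:**
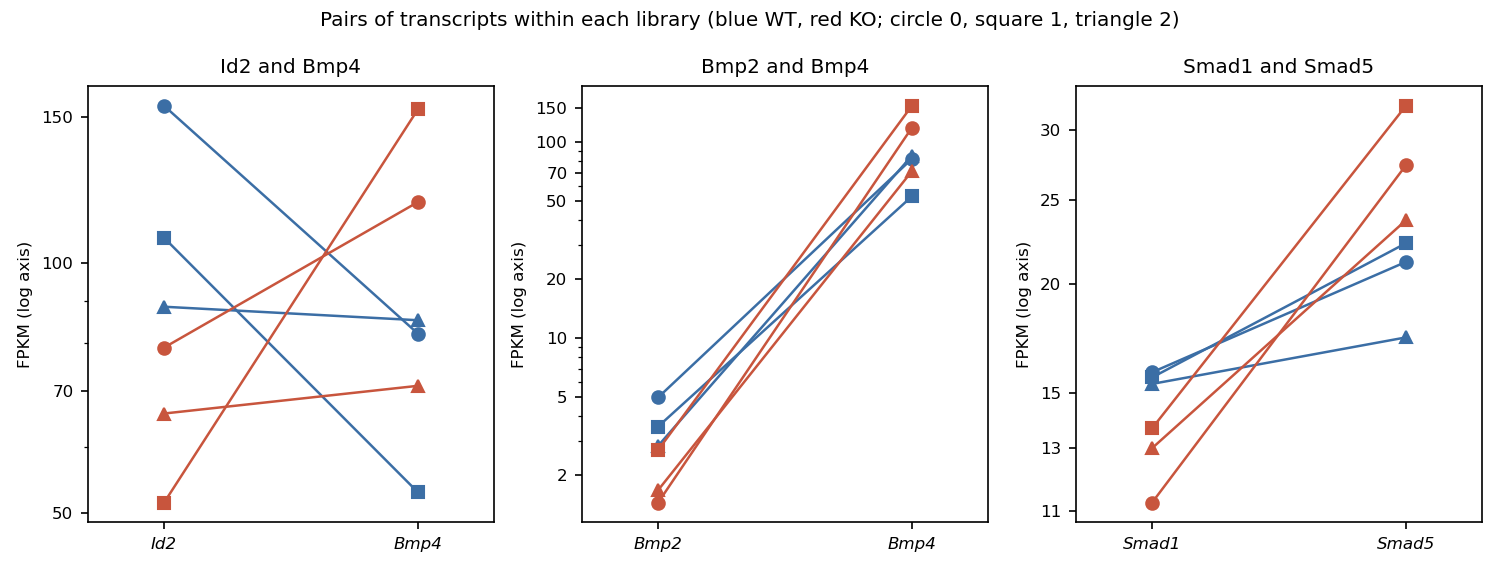
FPKM, on log axes, of 2 transcripts joined by a line for each library (blue WT, red KO). In the left panel the WT lines fall from *Id2* to *Bmp4* and the KO lines rise. In the middle and right panels the KO lines from *Bmp2* to *Bmp4* and from *Smad1* to *Smad5* are steeper than the WT lines. For *Smad1* and *Smad5* this follows from each gene not overlapping between the groups, in opposite directions.

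Beyond the 10 members, 55 further genes of the pathway were listed, of which 41 were tested. None passed the adjusted threshold, 7 had an unadjusted p under 0.05 (3 lower and 4 higher in KO), and 9 did not overlap between the groups (4 lower and 5 higher). Their median log2 fold change was -0.082. Both counts are larger shares of the 41 than the 8.28% and 16.1% of all genes given above, and these differences in share were not tested.

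Among the other receptors, 9 of 10 listed were tested. *Acvr1*, the type I receptor ALK2 and the most abundant of them, was at 32.1, 36.7, and 43.5 FPKM in WT 0, 1, and 2 and at 28.3, 29.1, and 20.2 FPKM in KO 0, 1, and 2, below WT in each KO library (log2 fold change -0.54, SE 0.22, adjusted p = 0.591 from limma). *Bmpr1b*, the type I receptor ALK6, went the other way at a low level, with 1.18, 1.37, and 1.70 FPKM in WT and 6.45, 2.45, and 3.50 FPKM in KO (log2 fold change 1.39, SE 0.63, adjusted p = 0.611 from limma). These type I receptors, *Bmpr1a*, *Bmpr1b*, and *Acvr1*, were thus not shifted in 1 direction on average. *Acvrl1*, a further type I receptor of the list with a mean of 23.5 FPKM, overlapped between the groups (log2 fold change -0.28, SE 0.32).

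Of the 6 SMADs, all tested, none had an unadjusted p under 0.05. *Smad1* was at 15.9, 15.6, and 15.4 FPKM in WT 0, 1, and 2 and at 11.2, 13.7, and 12.98 FPKM in KO 0, 1, and 2 (log2 fold change -0.31, SE 0.22, adjusted p = 0.699 from limma). *Smad5*, which acts alongside it, was at 21.2, 22.3, and 17.4 FPKM in WT and at 27.4, 32.01, and 23.7 FPKM in KO (log2 fold change 0.44, SE 0.21, adjusted p = 0.62 from limma). Neither overlapped between the groups, also after quantile normalization or median centring. The ratio of *Smad5* to *Smad1*, chosen after the values were seen, was 1.34, 1.42, and 1.13 in WT and 2.43, 2.34, and 1.82 in KO (exact permutation p = 0.1). With *Smad5* above and *Smad1* below WT in each KO library, this ratio could not overlap, so its p adds nothing to the values of each gene. *Smad7*, an inhibitory SMAD that is itself induced by the pathway and the most abundant of the list, was at 41.1, 29.4, and 27.6 FPKM against 50.3, 46.6, and 23.9 FPKM, which overlap.

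Of 19 secreted antagonists and modulators, 15 were tested, 10 with a lower and 5 with a higher mean in KO and a median log2 fold change of -0.26. *Fstl1*, a follistatin-like glycoprotein that binds BMPs and the most abundant gene of the whole pathway here, was at 2090.2, 1380, and 1459 FPKM in WT 0, 1, and 2 and at 1085, 1118, and 871 FPKM in KO 0, 1, and 2, without overlap (log2 fold change -0.66, SE 0.26, unadjusted p = 0.0327, adjusted p = 0.588 from limma). *Nbl1*, a secreted antagonist of the DAN family, was at 29.6, 30.6, and 60.5 FPKM in WT and at 15.2, 25.9, and 24.5 FPKM in KO, also without overlap (log2 fold change -0.83, SE 0.34, adjusted p = 0.591 from limma, and -0.50 without WT 2). *Crim1*, a membrane protein that binds BMPs, was at 20.3, 21.9, and 27.5 FPKM in WT and at 40.4, 41.4, and 26.3 FPKM in KO, where KO 2 lay within WT (log2 fold change 0.61, SE 0.24, unadjusted p = 0.0369 from limma). It shares exon sequence with *Fez2* on the opposite strand.

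*Sostdc1*, another secreted antagonist, had the largest difference of the 41 genes. It was at 0.559 and 0.543 FPKM in WT 0 and WT 1, listed at 0 in WT 2, and at 0.574, 18.1, and 34.6 FPKM in KO 0, 1, and 2. Its level in KO 0 was close to WT, and its log2 fold change of 4.43 (SE 1.59, adjusted p = 0.564 from limma) came from KO 1 and KO 2. Those libraries also had the highest Schwann cell scores, 1.68 and 2.12, as against 0.13 in KO 0 and -0.95 to -0.65 in WT, and the part of Schwann cells in it was not tested. *Chrdl1*, a chordin-like antagonist, was at 2.15, 2.11, and 0.369 FPKM in WT and at 2.79, 2.19, and 3.71 FPKM in KO, values that do not overlap but nearly meet (adjusted p = 0.702 from limma).

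Of the other ligands, 4 of 10 were tested and *Bmp8a* and *Bmp15* were listed at 0 in every library. *Gdf10*, a distant relative of the BMPs also called BMP3B, was the most abundant, at 14.4, 35.7, and 32.3 FPKM in WT 0, 1, and 2 and 52.2, 36.0, and 65.9 FPKM in KO 0, 1, and 2, where WT 1 and KO 1 were nearly equal (log2 fold change 0.96, SE 0.38, adjusted p = 0.591 from limma, and 0.55 without WT 0). Of the other transcripts that BMPs induce, 7 of 10 were tested and none was without overlap. *Id4*, the remaining *Id* gene and the most abundant of them, was at 40.04, 27.3, and 22.5 FPKM in WT and at 27.7, 37.3, and 22.1 FPKM in KO, with a log2 fold change of -0.035 (SE 0.29, 95% interval -0.70 to 0.63) that turned positive in 4 of 18 alternative fits, quantile normalization among them. *Tbx2*, a T-box repressor, was at 1.59, 2.95, and 8.53 FPKM in WT and at 17.54, 12.4, and 6.94 FPKM in KO, which overlap (log2 fold change 1.71, SE 0.65, unadjusted p = 0.0316, adjusted p = 0.588 from limma).

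**Figure D5:**
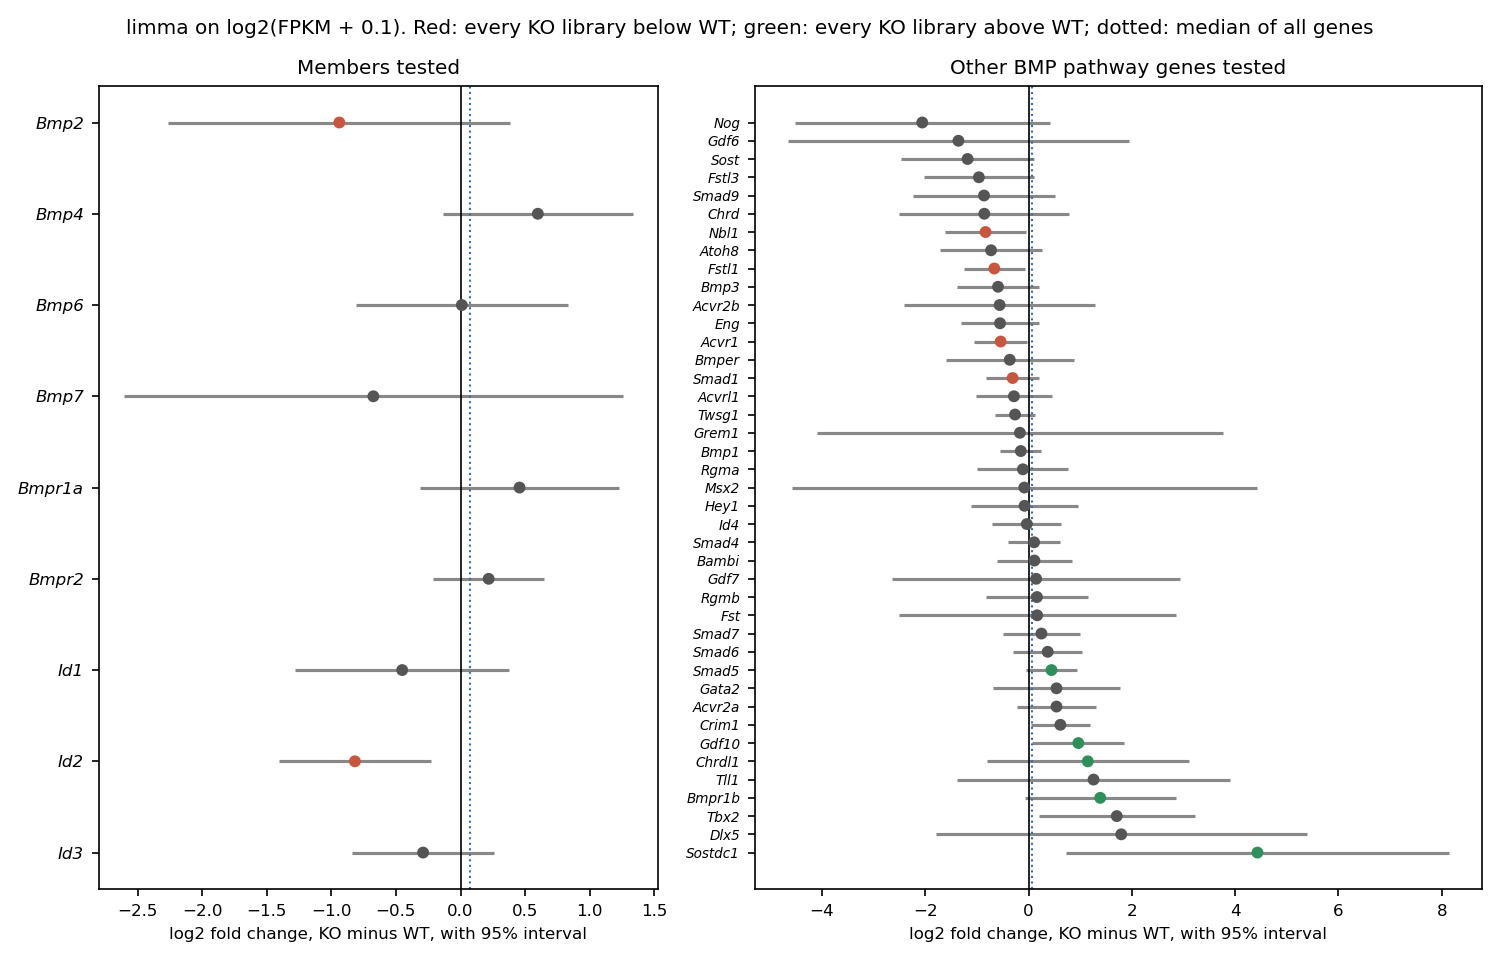
Log2 fold change of KO minus WT with its 95% interval from limma, for the 9 members tested (left) and the 41 other pathway genes tested (right). Points are red where each KO library lay below each WT library and green where above, the dotted line is the median of all genes at 0.072, and the intervals of all members but *Id2* include 0.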

How the data were processed

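RNA-Seq of the DA at E17.5 was available as 1 table with 6 libraries, 3 of each genotype, grouped and numbered by sample title, and each column was matched to the title that names it (0 columns unmatched). The authors removed low-quality and short reads, mapped the rest with TopHat2 (mm10), and deposited the FPKM values that Cufflinks and Cuffdiff gave. Tool versions, the annotation, strand, and any scaling between libraries are not given in the sources used here. Because FPKM values are not counts, no count model was fitted, and neither the total depth nor its counting error is known.

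The deposited FPKM were taken to log2 after adding 0.1, and the 12955 genes averaging 1 FPKM or more were fitted in limma 3.58.1 (R 4.3.3) by trended eBayes. Tests were two-sided and adjusted over all of these genes by Benjamini-Hochberg. Cuffdiff needs aligned reads and was not repeated. The fit was tested on values drawn with known changes. Single values were compared by exact permutation over the 6 libraries. Positions came from GENCODE M21 on GRCm38, the assembly of mm10, and promoter windows from RefSeq on GRCm38.p6.

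The members and gene lists were chosen with earlier results of these data known. Beside the members, the text names in each pathway list the most abundant gene, genes with an unadjusted p under 0.05, and genes whose groups do not overlap, as well as *Prdm6*, overlapping genes, and markers set beside a member. Alternatives covered the pseudocount, filter, scaling, variance model, replicate block, and omission of libraries. The ratios and ligand shares were added after the data were seen.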

Additional observations from a re-analysis of the deposited data

How the results depend on the processing

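Over 18 alternative settings, 0 members and 0 of the other pathway genes reached an adjusted p under 0.05 in limma (lowest 0.384 for *Id2* and 0.461 for the other genes). *Bmp2*, *Bmp4*, *Bmp7*, *Bmpr1a*, *Bmpr2*, *Id1*, and *Id2* kept their direction wherever they had a value. The log2 fold change of *Bmp6*, 0.0098, became -0.017 with median centring and lay between -0.29 and 0.31 with a library left out, negative at -0.091 without WT 0, -0.19 without WT 1, and -0.29 without KO 1. That of *Id3* became 0.0052 without WT 1 and KO 2. That of *Id4* became 0.013 with quantile normalization, 0.098 without WT 1 and KO 2, 0.20 without WT 0, and 0.14 without KO 2, between -0.23 and 0.20 with single libraries omitted. The median over the members, -0.29, became 0.0098 over the 7 members averaging 5 FPKM or more and 0.0052 without WT 1 and KO 2, and lay between -0.36 and -0.0068 with single libraries omitted.

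The count of 1 gene past the threshold became 2 without the mean-variance trend, without moderation, and without WT 1 and KO 2, and was 1 or 2 with single libraries omitted (2 without WT 1 and 2 without KO 2). At an unadjusted p under 0.05 it was 1073 in the setting reported. The number of other pathway genes without overlap, 9, was between 12 and 17 with single libraries omitted and was 23 without WT 1 and KO 2. The share of all genes without overlap was not counted in these settings, so these numbers cannot be set against it. Leaving libraries out can only raise such a number. The number of neighbouring pairs by level with the same order in every library, 2 of 9 over 6 libraries, was 5 in WT alone and 4 in KO alone, for the same reason.

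The numbers 0, 1, and 2 are not described as pairs, and deviations of same-numbered libraries from their group means correlated at 0.122, -0.076, and -0.009 over genes, so only the pair numbered 0 correlated best with its own number. With a replicate block, the count stayed 1, and *Id2* had an adjusted p of 0.384 from limma.

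Without KO 0, which held *Xist* and Y chromosome transcripts together, the log2 fold change was -0.97 for *Id2*, -0.76 for *Bmp2*, and 0.54 for *Bmp4*. The 95% interval was over 1 log2 unit wide for 8 of the 9 members tested.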

Other observations

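A further 3 ratios within a library, chosen after the values were seen, overlapped between the groups. The ratio of *Bmp4* to *Bmp6* was 2.09 to 3.49 in WT and 3.45 to 5.001 in KO (exact permutation p = 0.2). The ratio of the type I receptor *Bmpr1a* to the type II receptor *Bmpr2* was 1.39 to 2.63 in WT and 2.06 to 3.36 in KO (exact permutation p = 0.6). The ratio of *Id3* to *Id2* was 0.848 to 1.302 in WT and 1.11 to 2.21 in KO (exact permutation p = 0.3). *Id2* made up 42.3%, 37.8%, and 33.8% of the summed FPKM of *Id1*, *Id2*, and *Id3* in WT 0, 1, and 2 and 28.3%, 24.99%, and 39.4% in KO 0, 1, and 2, so KO 2 went against the other KO libraries.

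*Nog*, which encodes the BMP antagonist noggin, fell outside the rule for named genes and is given after its values were seen. It was at 4.97, 1.83, and 2.01 FPKM in WT 0, 1, and 2 and at 0.259, 2.10, and 0.261 FPKM in KO 0, 1, and 2. KO 0 and KO 2 lay below all of WT, while KO 1 was above WT 1 and WT 2 (log2 fold change -2.06, SE 1.06, adjusted p = 0.639 from limma). The values of KO 0 and KO 2 are close to the 0.1 added before log2, on which the size of this fold change depends.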
